A study of Mus musculus with 6 samples.

Results

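Immunity-related GTPases (IRGs) are a family of IFN-inducible GTPases, and 8 of its genes are described here in CNS monocytes that carried or lacked the type I IFN receptor. The 8 genes were chosen by symbol and are Igtp, Irgm1, Irgm2, Iigp1, Tgtp1, Tgtp2, Ifi47 and Gm4951. All 8 were found among the 54232 genes of the deposited files by their Ensembl identifiers, and all 8 passed the filter on low counts, which left 11254 genes for testing. In a test that did not pair libraries of the 2 genotypes, none of the 8 passed for a difference between WT and Ifnar1-/- monocytes, although each had a higher mean in WT. The fold was largest for Gm4951 (4.3) and Iigp1 (2.65), and it lay between 1.22 and 1.55 for the other 6. The count of members that passed depended on the settings, and alternatives called 0 to 4. With a block for replicate number, which no source ties to a mouse, edgeR called Iigp1 and Gm4951.

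IRG proteins defend mouse cells against pathogens that live inside vacuoles. Irgm1, Irgm2 and Igtp (also called Irgm3) are the regulatory IRGs, named GMS proteins after a change in their GTP-binding motif, and they sit on host membranes and keep the other IRGs inactive there. Iigp1 (Irga6), Tgtp1 and Tgtp2 (both Irgb6) and Ifi47 (Irgd) are effector IRGs, which load onto the vacuole around a pathogen and disrupt it. The genes are known as strong targets of IFN-γ in macrophages, and type I IFN, which signals through IFNAR1 and IFNAR2, also induces many of them.

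The study sorted monocytes from the CNS of mice with experimental autoimmune encephalomyelitis (EAE), a mouse model of multiple sclerosis, and sequenced total RNA of 3 WT and 3 Ifnar1-/- samples. Recipients were GFP+ mice that had been irradiated with 2 doses of 550 rad and then given marrow of WT donors (CD45.1 allele) and Ifnar1-/- donors (CD45.2 allele) in equal parts. They were immunized with a myelin peptide 6 to 7 weeks later and received 30000 IU of rIFN-β per day, so every library of both groups came from rIFN-β-treated mice and none from untreated mice. At the peak of disease, GFP- CD45+CD11b+Ly6ChiLy6G- cells were sorted by their CD45 allele. The lack of Ifnar1 and the other differences between CD45.1 and CD45.2 donors, including the genes linked to each allele, cannot be told apart. Because both kinds of marrow shared hosts, 3 recipients in all, the groups may also share mice. The sources do not say whether libraries of the same number came from 1 mouse, or whether cells were pooled, so p-values measure the spread between these samples.

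Promoters of 6 of the 8 genes were matched by symbol in RefSeq (GRCm38.p6), and the bases around their IFN motifs are shown because these are the elements through which such genes are known to respond to IFN. The members with the largest folds, Iigp1 and Gm4951, had no promoter entry and were not searched. Both strands of the 250 bases before each start were searched for the letters GAAANNGAAA (TTTCNNTTTC on the other strand), an IFN-stimulated response element (ISRE), and TTCNNNGAA, which reads the same on both strands, an IFN-γ-activated site (GAS). The ISRE is bound by a complex that contains STAT2 and IRF9 and by IRF1. Each printed stretch runs 5′ to 3′ on the strand of the gene, with motif matches in capitals.
Igtp (chr11:58199496-58199546, plus strand): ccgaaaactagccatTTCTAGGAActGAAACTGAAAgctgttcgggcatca
Irgm2 (chr11:58214887-58214937, plus strand): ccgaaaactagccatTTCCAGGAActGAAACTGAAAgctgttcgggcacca
Tgtp1 (chr11:48992299-48992349, minus strand): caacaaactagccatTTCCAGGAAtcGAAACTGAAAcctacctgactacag
Tgtp2 (chr11:49064258-49064308, minus strand): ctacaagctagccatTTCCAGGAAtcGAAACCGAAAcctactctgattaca
Irgm1 (chr11:48871428-48871457, minus strand): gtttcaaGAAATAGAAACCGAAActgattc
Gm12185 (chr11:48927233-48927283, minus strand): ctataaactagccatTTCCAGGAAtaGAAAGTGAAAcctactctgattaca

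Igtp, Irgm2, Tgtp1 and Tgtp2 each held a GAS followed 2 bases later by an ISRE, with the ISRE beginning 34, 64, 77 and 70 bases before the start, respectively. Irgm1 had 2 overlapping ISRE matches and no GAS match in the window. Thus 5 of the 6 members with a promoter entry had an ISRE and 4 had both motifs, whereas 2.98% of 32851 promoters of the same length held an ISRE, 7.02% a GAS and 0.332% both. The printed stretches of Igtp, Irgm2, Tgtp1 and Tgtp2 are also alike in the bases just before the GAS. These 4 promoters are therefore not independent cases, and the counts were not tested against the shares over all promoters. Ifi47 had no match to either set of letters in this window. The RefSeq starts of Irgm1, Irgm2 and Tgtp1 lie inside their longer GENCODE gene models, and the Irgm1 stretch falls in an exon of 1 annotated transcript. Gm12185 is shown as a relative from the same cluster that carries both motifs and passed the test described further on. Its RefSeq start (chr11:48927182) also lies inside its longer GENCODE gene model (chr11:48904656-48992226, minus strand). Promoters of 6 other family genes were searched, and family genes on chromosome 18 were left out of the search. Of the 6, 2 held both motifs, Gm12185 and Gm12250, and only the first of these passed. Gm5431 and 9930111J21Rik2, which also passed, held neither. A match describes letters and does not establish that a factor binds.

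Of the 8 genes, 6 lie on chromosome 11 and 2 on chromosome 18 (GRCm38, GENCODE M21), and all are annotated as protein coding. Irgm1 (ENSMUSG00000046879.7, chr11:48861968-48871683, minus strand), Tgtp1 (ENSMUSG00000078922.9, chr11:48985327-48994172, minus strand), Tgtp2 (ENSMUSG00000078921.3, chr11:49057194-49064206, minus strand) and Ifi47 (ENSMUSG00000078920.3, chr11:49076587-49096974, plus strand) form 1 cluster. Igtp (ENSMUSG00000078853.8, chr11:58199556-58207591, plus strand) and Irgm2 (ENSMUSG00000069874.7, chr11:58199618-58222782, plus strand) lie farther along the chromosome, and their gene models overlap on the same strand. On chromosome 18 are Gm4951 (ENSMUSG00000073555.1, chr18:60212080-60247820, plus strand) and Iigp1 (ENSMUSG00000054072.11, chr18:60376027-60392634, plus strand).

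Expected counts are read numbers per gene as RSEM estimates them. The libraries held 4531782 to 7321380 of them, and 3 counts corresponded to 0.427 to 0.638 CPM, counts scaled to library size. Summed monocyte markers (Ly6c2, Ccr2, Itgam, Csf1r, Cd14, Fcgr1 and Lyz2) reached 7801 to 9587 CPM in WT and 8262 to 9523 CPM in Ifnar1-/- libraries, and all 7 were detected. Of these 7, Ly6c2, part of the sorted antigen, was called higher in WT (log2 fold change 1.40, adjusted p = 0.00957), and Ccr2, which was not called, was lower in every WT library (648, 694 and 587 CPM in WT, 1269, 794 and 905 CPM in Ifnar1-/-). Fcgr1, also not called, was higher in every WT library (413, 278 and 271 CPM in WT, 203, 194 and 192 CPM in Ifnar1-/-). Ifnar1 itself, the deleted gene, was counted in every library, at 153, 126 and 111 normalized CPM in WT and 110, 102 and 109 in Ifnar1-/- (log2 fold change 0.28, adjusted p = 0.36), and counts over the whole gene do not show which exons were read. Summed T cell markers stood at 43, 19.3 and 43.6 CPM in WT and at 18.9, 8.3 and 9.01 CPM in Ifnar1-/- libraries, without overlap. Of these 8 markers, 5 were higher in every WT library, as were 11.1% of all genes tested, and none of the 7 tested passed. The exact permutation p for the sum was 0.1 (two-sided), the smallest that 3 against 3 libraries allow. Neutrophil markers summed to 261 to 1519 CPM in WT and 671 to 1854 CPM in Ifnar1-/- libraries, and microglial markers to 242 to 322 and 285 to 363 CPM. The red cell, B cell and NK cell sums were at most 4.6, 1.71 and 19.5 CPM, dendritic cell markers summed to at most 26.8 CPM, and neuronal and glial markers to 44.7 to 61.5 CPM, with Mog at 0. The part of these cells in the values below was not tested. In such bulk samples, fewer cells that express a gene and less RNA per cell cannot be told apart.

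Values of single genes are normalized CPM (library sizes adjusted by TMM), listed for libraries 1, 2 and 3 in turn. Fold changes are WT over Ifnar1-/- on the log2 scale from the quasi-likelihood test of edgeR, with p-values adjusted over the 11254 genes. A gene was called where the adjusted p did not exceed 0.05 and the fold was 1.5 or more. These are the limits that the study's methods set. By this rule 0 of the 8 IRGs were called higher in WT and 0 lower, while 1.67% of all genes tested were called higher and 0.462% lower. At an unadjusted p of at most 0.05, 4 of the 8 passed (Irgm1, Iigp1, Ifi47 and Gm4951), against 9.69% of all genes in that direction. DESeq2, which called 2.87% of its genes higher in WT, and limma-voom, which called 1.58%, also called 0 of the 8. Without a filter on low counts 4 of the 8 passed (Irgm1, Iigp1, Tgtp1 and Gm4951, with 2.87% of 21265 genes), and Gm4951 alone passed with at least 10 counts in every library (1.7% of genes) or with offsets for GC content and length (1.63%). With a block for replicate number, which no source ties to a mouse, edgeR called 2 of the 8 (Iigp1 and Gm4951, with 1.62% of genes). The block with GC and length offsets called 4 (Irgm1, Iigp1, Tgtp1 and Gm4951, 2.02%). DESeq2 with the block, added after seeing the data, called 3 (Irgm1, Iigp1 and Gm4951, 2.09%). The log2 fold change was above 0 for 8 of 8 members with a median of 0.57, whereas it was above 0 for 48.2% of all genes, which had a median of -0.01. In 3 members, Igtp, Ifi47 and Gm4951, every WT library was above every Ifnar1-/- library, as in 11.1% of all genes.

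**Figure D1:**
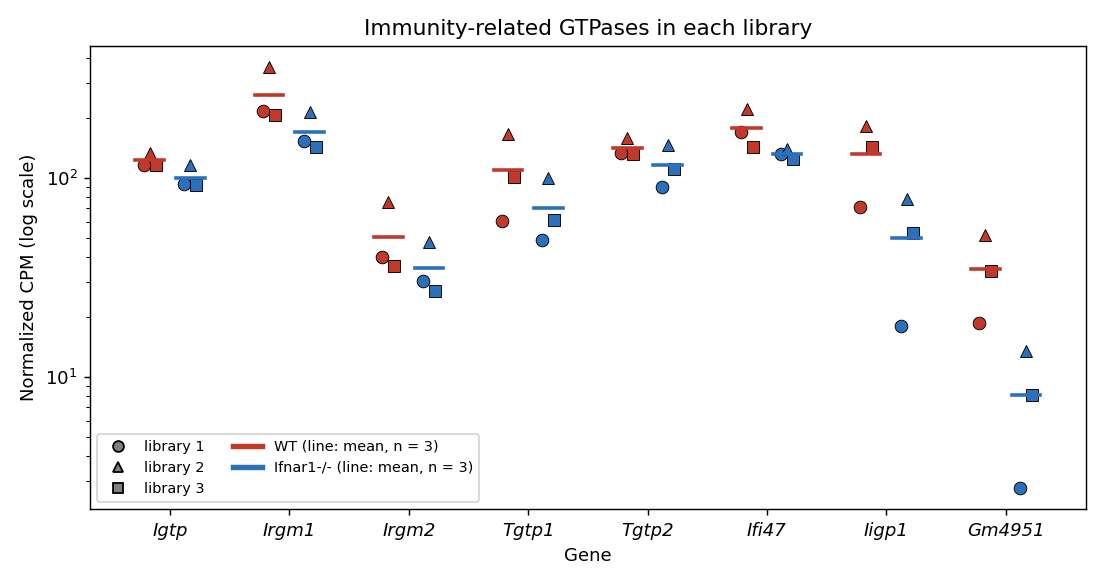
Normalized CPM (log axis) of the 8 IRG genes in each library, with WT in red, Ifnar1-/- in blue, a symbol for each library number and a line at each group mean (n = 3). Library 2 (triangles) is the highest of its group for all 8 genes, and only Igtp, Ifi47 and Gm4951 have no overlap between the groups.

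None of the 3 regulatory IRGs passed the test. Igtp stood at 116, 133 and 116 CPM in WT and at 92.5, 116 and 91.9 CPM in Ifnar1-/- libraries, with means of 122 ± 9.76 and 100 ± 13.6 (SD, n = 3). Although the lowest WT libraries only just exceeded the highest Ifnar1-/- library, the groups did not overlap. The log2 fold change of Igtp was 0.28 (SE 0.15, 95% interval -0.05 to 0.61, adjusted p = 0.348), the smallest of the 8 genes.

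Irgm1, which is also known for a role in autophagy, stood at 217, 360 and 206 CPM in WT and 153, 213 and 143 CPM in Ifnar1-/- libraries. Library 2 was far above the other libraries of its group in both genotypes, and Ifnar1-/- library 2 exceeded WT library 3. With means of 261 ± 85.7 and 170 ± 37.9, the log2 fold change was 0.62 (SE 0.24, 95% interval 0.09 to 1.15, adjusted p = 0.21). Irgm2 reached 39.8, 75.7 and 35.9 CPM in WT and 30.4, 47.6 and 26.8 CPM in Ifnar1-/- libraries. Its groups overlapped as well, since Ifnar1-/- library 2 was above WT libraries 1 and 3, and the log2 fold change was 0.52 (SE 0.30, 95% interval -0.13 to 1.18, adjusted p = 0.387). Of the 75-base windows of Irgm2 transcripts, 4.53% were shared with Igtp, as were 7.8% of the windows of Igtp with Irgm2, and in such windows a read of this length does not tell the genes apart.

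Among the effectors, Ifi47 had no overlap between the groups, at 170, 222 and 143 CPM in WT against 132, 139 and 124 CPM in Ifnar1-/- libraries. The Ifnar1-/- libraries lay closer together (132 ± 7.25) than the WT libraries (178 ± 39.9). The log2 fold change of Ifi47 was 0.44 (SE 0.17, 95% interval 0.05 to 0.82, adjusted p = 0.222). Olfr56, an olfactory receptor gene whose model overlaps Ifi47 on the same strand, had the same log2 fold change of 0.44 at a lower level, 14.4, 14.7 and 14.6 CPM in WT and 9.77, 12.2 and 10.1 CPM in Ifnar1-/- libraries (adjusted p = 0.245). Only 1.55% of the 75-base windows of Ifi47 were shared with Olfr56.

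Tgtp1 and Tgtp2 encode near-identical proteins, and RSEM divides reads that fit both. Of the 75-base windows of Tgtp1, 74.6% were shared with Tgtp2, and 81.4% of those of Tgtp2 with Tgtp1, so the value of each gene alone is uncertain. Tgtp1 was estimated at 60.3, 166 and 101 CPM in WT and 48.7, 100 and 61.1 CPM in Ifnar1-/- libraries (log2 fold change 0.64, SE 0.35, adjusted p = 0.371). Tgtp2 was estimated at 133, 159 and 131 CPM in WT and 89.8, 146 and 111 CPM in Ifnar1-/- libraries (log2 fold change 0.29, SE 0.19, adjusted p = 0.459). For Tgtp1 the WT libraries spanned a 2.75-fold range, wider than the difference between the group means, and the groups of both genes overlapped. Summed to 1 feature, the pair stood at 193, 326 and 232 CPM in WT and 139, 247 and 172 CPM in Ifnar1-/- libraries, a log2 fold change of 0.43 (SE 0.24, 95% interval -0.11 to 0.97, adjusted p = 0.388). The exact permutation test of the sum gave p = 0.3. With offsets for GC content and length, the estimate for Tgtp2 alone moved from 0.29 to 0.64 (adjusted p = 0.212). Tgtp2 took 49% to 68.8% of the pair's counts in WT and 59.3% to 64.9% in Ifnar1-/- libraries.

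The widest differences were those of the chromosome 18 members. Iigp1, the best studied effector, stood at 71.3, 181 and 142 CPM in WT and at 18, 77.9 and 52.8 CPM in Ifnar1-/- libraries. The groups overlapped through a single pair of libraries, since Ifnar1-/- library 2 was above WT library 1. With means of 131 ± 55.4 and 49.6 ± 30.1, the log2 fold change was 1.40 (SE 0.46, 95% interval 0.39 to 2.41, adjusted p = 0.151), a fold of 2.65 with an interval from 1.31 to 5.33. Within Ifnar1-/- libraries alone, Iigp1 spanned a 4.33-fold range.

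Gm4951, a predicted GTPase gene of the same chromosome 18 cluster, was counted 131, 243 and 172 times in WT and 18, 79 and 44 times in Ifnar1-/- monocytes, which corresponds to 18.6, 51.6 and 34 CPM and to 2.75, 13.4 and 8.09 CPM. Here every WT library was above every Ifnar1-/- library, and the highest Ifnar1-/- value (13.4) came near the lowest WT value (18.6). The log2 fold change was 2.10 (SE 0.48, 95% interval 1.03 to 3.17), a fold of 4.3 with an interval from 2.05 to 9.01, and its adjusted p of 0.0575 lay just above the threshold. Leaving out WT library 1 gave 2.43 (adjusted p = 0.0185) and leaving out Ifnar1-/- library 2 gave 2.71 (adjusted p = 0.0413), each past the threshold, and the other single omissions did not pass. The gene model overlaps Gm5970 on the same strand, which stood at 5.41, 10.4 and 8.88 CPM in WT and 0.153, 5.42 and 3.31 CPM in Ifnar1-/- libraries (log2 fold change 1.48, adjusted p = 0.263), and no 75-base window of Gm4951 was shared with another gene.

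**Figure D2:**
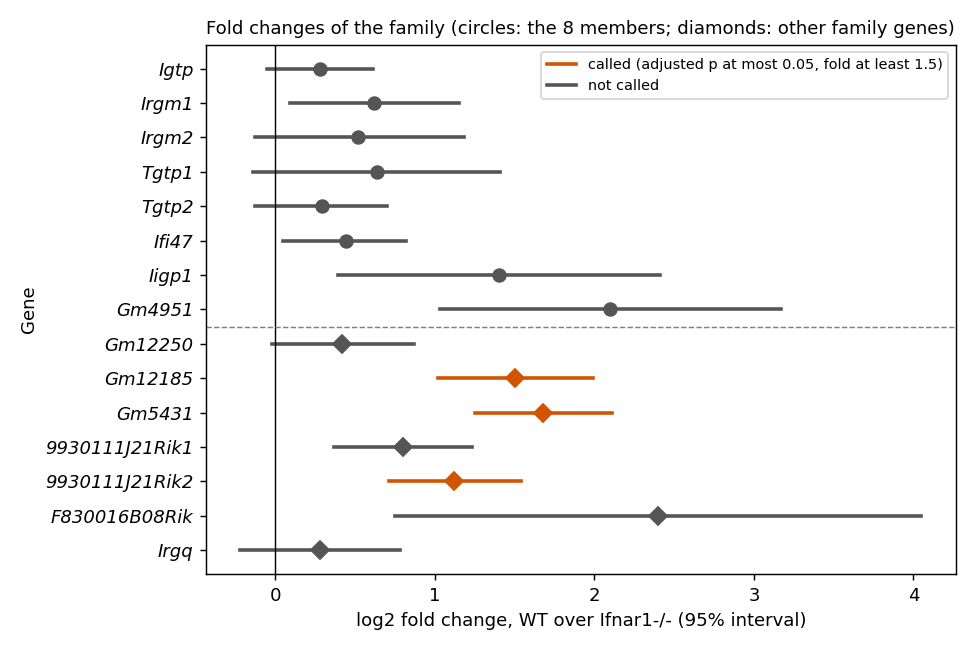
Log2 fold change of WT over Ifnar1-/- with its 95% interval from edgeR for the 8 IRG genes (circles) and for 7 other genes of the family (diamonds), with called genes in orange. The intervals of Igtp, Irgm2, Tgtp1 and Tgtp2 include 0, Gm4951 has the largest estimate of the 8 at 2.10, and the called genes are Gm12185, Gm5431 and 9930111J21Rik2.

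Libraries of 1 genotype differed in their IRG levels as a group. Library 2 was the highest of its group for 8 of 8 IRGs among WT libraries and for 8 of 8 among Ifnar1-/- libraries, whereas over all genes tested library 2 was the highest for 34.2% and 35.3%. As log2(normalized CPM + 0.5), the 8 genes deviated from their group means by medians of -0.24, 0.54 and -0.08 in WT and of -0.24, 0.43 and -0.10 in Ifnar1-/- libraries. Thus the gap between libraries of the same genotype reached the size of the median fold change between genotypes (0.57). The members were unequal in this respect. Ifi47 and Igtp spanned 1.12-fold and 1.26-fold ranges over the Ifnar1-/- libraries, while Iigp1 and Gm4951 spanned 4.33-fold and 4.87-fold ranges. In both genotypes, library 1 was the lowest for Iigp1, Gm4951, Tgtp1 and 1 further gene in each group. The number 2 libraries had the lowest T cell (19.3 CPM in WT and 8.3 CPM in Ifnar1-/-) and NK cell (5.74 and 1.69 CPM) marker sums of their groups. Their monocyte (7801 and 8262 CPM), neuronal and glial, and red cell sums were the lowest as well. Microglial sums were highest in WT library 2 (322 CPM) and jointly highest in Ifnar1-/- library 2 (363 CPM). For neutrophil, B cell and dendritic cell markers, library 2 held a different rank in each group. The part of these cells in the IRG levels was not tested. Without WT library 2 the median fold change of the 8 genes was 0.25, and Irgm1, Irgm2 and Tgtp1 were at 0.33, 0.13 and 0.21. Without Ifnar1-/- library 2 the median was 0.83, and the same genes were at 0.83, 0.83 and 1.00, so the number 2 libraries moved the estimates in opposite directions. Replicate numbers have no order, and the labels give no batch for them.

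**Figure D3:**
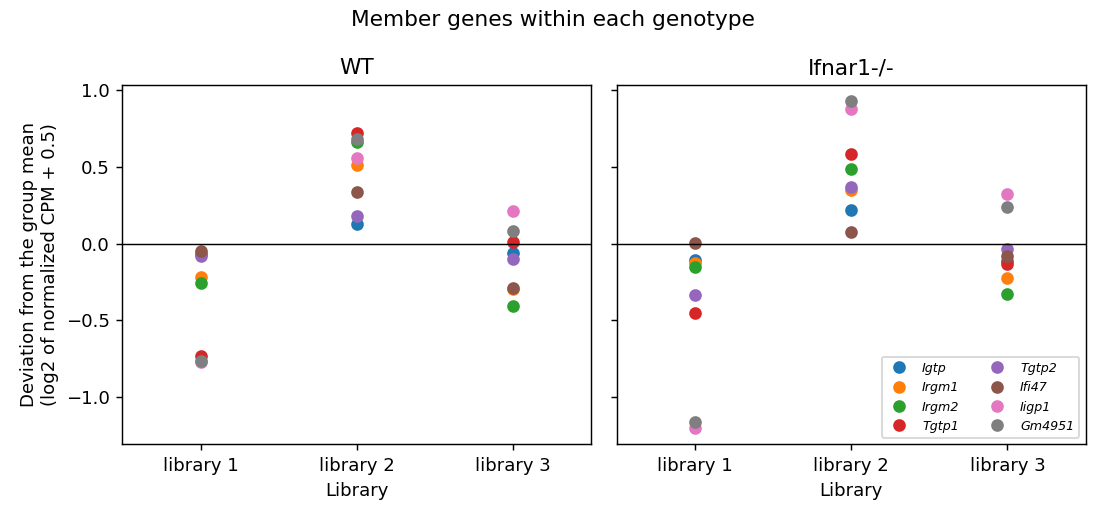
Deviation of each IRG gene from its group mean (log2 of normalized CPM plus 0.5) in the 3 WT libraries (left) and the 3 Ifnar1-/- libraries (right), with 1 color per gene. All 8 genes lie above 0 in library 2 of both genotypes, and Iigp1 and Gm4951 lie lowest in library 1.

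Across the 6 libraries the members moved together, with Pearson correlations of log2(normalized CPM + 0.5) between 0.642 (Iigp1 and Ifi47) and 0.984 (Iigp1 and Gm4951) over 28 pairs and a median of 0.859. These points share genotype and library, so the correlations are a description only. Outside the 8 members, the gene most like their mean profile was Tap1 (r = 0.99 over 6 libraries), a subunit of the peptide transporter that supplies MHC class I, at 436, 594 and 459 CPM in WT and 287, 414 and 331 CPM in Ifnar1-/- libraries. With a log2 fold change of 0.53 (adjusted p = 0.178), Tap1 was not called either. The next were Ctdsp2 (r = 0.983), Gpr15 (0.983), Pdk3 (0.979) and Stk11ip (0.978), each with a log2 fold change between 0.27 and 0.57 and none called.

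Levels of different genes were compared as TPM, which the authors scaled by transcript length and to a fixed total per library. Tgtp2 had the highest mean in both genotypes (307 ± 80.9 TPM in WT, 204 ± 96.2 TPM in Ifnar1-/-), above every value of the next gene. RSEM assigned Tgtp2 an effective length of only 386 to 453 bases in WT and 471 to 593 bases in Ifnar1-/- libraries. For Tgtp1 the effective length was 1918 to 2271 bases. A short length raises TPM, so these lengths enter the TPM difference of Tgtp2 between the genotypes. In WT, Irgm1 (123 ± 56.1 TPM) and Ifi47 (112 ± 40.2) followed with overlapping ranges, and then Igtp (62.5 ± 15.7), Tgtp1 (46.9 ± 27.5), Iigp1 (45.7 ± 25), Irgm2 (14.5 ± 8.01) and Gm4951 (13.7 ± 8.13), each of which overlapped its neighbor. On the TPM scale the steps from Tgtp2 to Irgm1 and from Ifi47 to Igtp were free of overlap, and the other WT steps were not. In Ifnar1-/- libraries Ifi47 (81.2 ± 8.99 TPM) and Irgm1 (78.8 ± 24.9) changed places with overlapping ranges, followed by Igtp (50.4 ± 11.6), Tgtp1 (32.2 ± 12.9), Iigp1 (16.8 ± 11.3) and Irgm2 (9.89 ± 4.09). Gm4951 (3.11 ± 2.26 TPM) then stood below every value of Irgm2. The order was the same with FPKM and with normalized CPM per kilobase, but fewer neighbors overlapped on these scales. There the steps from Iigp1 to Irgm2 in WT and from Irgm1 to Igtp and Igtp to Tgtp1 in Ifnar1-/- libraries were free of overlap too. All of these scales divide the same counts by the same effective lengths, so a like order was largely fixed in advance. As mean normalized CPM, not divided by length, Tgtp2 (141 in WT, 116 in Ifnar1-/-) was below Irgm1 (261 and 170) and Ifi47 (178 and 132).

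Among the 11254 genes tested, the mean TPM of Tgtp2 stood at the 97.3 percentile in WT and the 96.2 percentile in Ifnar1-/- monocytes. Irgm1 was at 93.8 and 90.8, and Ifi47 at 93.2 and 91.1, so on the TPM scale these 3 genes ranked high in both genotypes. The rank of Tgtp2 depends on its short effective length and on the reads that RSEM divided between it and Tgtp1. Iigp1 stood at 83.9 in WT and 63 in Ifnar1-/-, and Gm4951 at 56.5 and 21.2. TPM were not used to test differences between libraries. The signal recognition particle RNAs Rn7s1 and Rn7s2 and the small nuclear RNA Rn7sk together took 38.4% of the TPM of WT library 1 and 14.2% to 19.4% in the other 5 libraries, which lowers the TPM of every other gene in WT library 1, and that library is part of the WT ranges and percentiles given here.

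Within the family, the regulatory IRGs took 28%, 29.5% and 24.7% of the summed TPM in WT and 33.3%, 27.7% and 28.1% in Ifnar1-/- libraries. The means of 27.4% ± 2.47 and 29.7% ± 3.12 (SD, n = 3) overlapped and differed by -2.28 percentage points (exact permutation p = 0.5). Leaving out 1 library moved this difference to between -0.486 (without Ifnar1-/- library 1) and -3.34 (without WT library 2), and it was -0.929 without WT library 3. These shares also depend on the effective length of Tgtp2, which was shorter in every WT library than in every Ifnar1-/- library. Without Tgtp1 and Tgtp2 the share of the regulatory IRGs was 54.1% ± 1.65 in WT and 57.6% ± 2.98 in Ifnar1-/- libraries (exact permutation p = 0.2). Iigp1 made up 3.85%, 6.9% and 7.05% of the family's TPM in WT and 1.59%, 4.2% and 4.09% in Ifnar1-/- libraries. Gm4951 made up 1.15%, 2.24% and 1.92% in WT and 0.274%, 0.817% and 0.71% in Ifnar1-/- libraries, with no overlap.

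**Figure D4:**
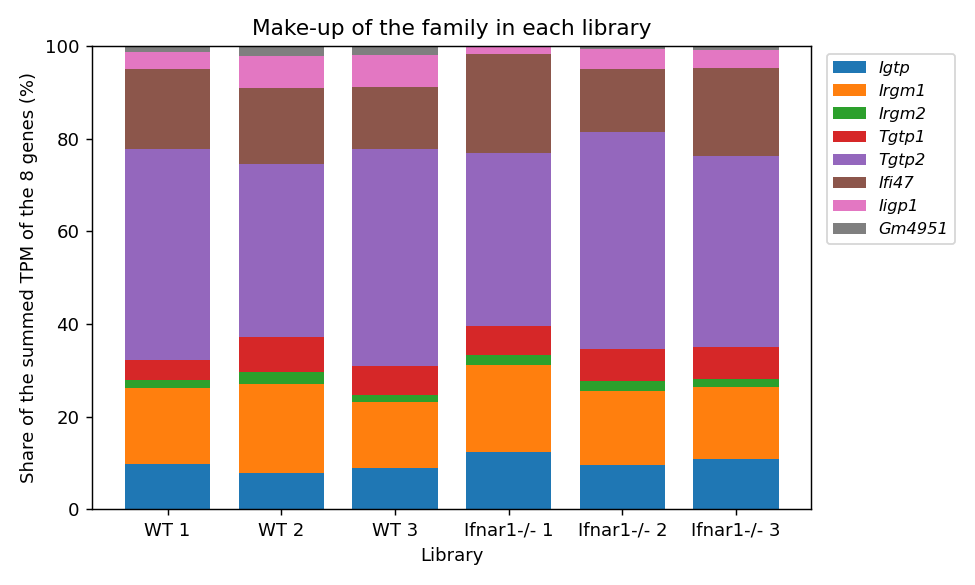
Share of each IRG gene in the summed TPM of the 8 genes (percent, stacked bars) in each of the 6 libraries. Tgtp2, whose effective length was shorter in WT libraries, takes 37.2% to 46.8% of the sum in every library. Gm4951 takes at most 0.817% in Ifnar1-/- libraries and at least 1.15% in WT libraries.

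Of 11 further IRG family genes listed, 10 were matched and 7 were tested, and 3 of the 7 were called higher in WT and 0 lower, beside 1.67% and 0.462% of all genes. Gm5431 stood at 84, 93.9 and 79 CPM in WT and at 20.5, 34.9 and 25 CPM in Ifnar1-/- libraries (log2 fold change 1.68, SE 0.19, adjusted p = 0.000987). Gm12185, whose promoter stretch is printed above and whose model overlaps Tgtp1, stood at 12.1, 14.5 and 12.2 CPM against 4.28, 4.41 and 4.97 CPM (a fold of 2.83 with a 95% interval from 2.02 to 3.97, adjusted p = 0.00462). The nearest values of the 2 genotypes were 79 and 34.9 CPM for Gm5431 and 12.1 and 4.97 CPM for Gm12185, so these groups were well apart. 9930111J21Rik2 stood at 131, 84 and 107 CPM against 52.4, 54.6 and 41 CPM (1.12, SE 0.19, adjusted p = 0.0113), and it fell short without Ifnar1-/- library 1 (1.18, adjusted p = 0.0627) or 3 (1.03, adjusted p = 0.0717). These 3 genes lie on chromosome 11 in the same cluster as Tgtp1 and Irgm1, and 11.7% of the 75-base windows of Gm12185, 27.2% of those of Gm5431 and 52.1% of those of 9930111J21Rik2 were shared with other genes.

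The other 4 tested relatives did not pass. Gm12250, also known as Irgb10 and annotated here as a processed pseudogene, stood at 65, 98.4 and 60.4 CPM in WT and 53.4, 64.7 and 48.4 CPM in Ifnar1-/- libraries (log2 fold change 0.42, adjusted p = 0.3). 9930111J21Rik1 stood at 104, 94.2 and 74 CPM against 39.9, 63.7 and 53 CPM (0.80, adjusted p = 0.0723), and 74.3% of its windows were shared with 9930111J21Rik2. F830016B08Rik, which lies between Gm4951 and Iigp1 on chromosome 18, was low in every library, at 2.85, 8.29 and 8.49 CPM in WT and 0, 1.19 and 2.57 CPM in Ifnar1-/- libraries (2.40, SE 0.74, adjusted p = 0.137). Irgq, a distant relative, had a log2 fold change of 0.28 (adjusted p = 0.56). The median over the 7 was 1.12, and in 5 of them every WT library was above every Ifnar1-/- library, as in 11.1% of all genes.

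Genes that transmit IFN signals gave a mixed picture. Of 22 listed, 21 were tested, and 3 were called higher in WT and 0 lower, beside 1.67% and 0.462% of all genes. The median log2 fold change of the 21 was 0.25. Usp18, an IFN-induced brake on IFNAR signalling, stood at 109, 69.9 and 70.3 CPM in WT and 3.82, 4.91 and 6.07 CPM in Ifnar1-/- libraries (4.09, SE 0.25, adjusted p = 1.3e-05). Stat2, part of the complex that binds the ISRE, stood at 189, 123 and 139 CPM against 30.8, 44.1 and 35.3 CPM (2.04, SE 0.20, adjusted p = 0.000347). Every WT value of both genes was above every Ifnar1-/- value, and WT library 1 was the highest for both. Nlrc5, which drives MHC class I genes, stood at 343, 245 and 275 CPM against 155, 193 and 139 CPM (0.83, SE 0.18, adjusted p = 0.0466), and it did not pass without WT library 1 (adjusted p = 0.103), WT library 3 (0.104), Ifnar1-/- library 1 (0.206) or Ifnar1-/- library 3 (0.203).

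Of the signalling genes that were not called, 3 with a high mean TPM are described. Irf1, the transcription factor through which IFN-γ acts on many ISREs, stood at 160, 284 and 220 CPM in WT and 201, 251 and 209 CPM in Ifnar1-/- libraries (log2 fold change 0.01, adjusted p = 0.989). Over the 21 signalling genes tested, WT library 1 was the highest of its group for 13 and WT library 2 for 6, while Ifnar1-/- library 2 was the highest for 12. Ifngr1, a chain of the IFN-γ receptor, had a log2 fold change of -0.01 (adjusted p = 0.975), and Socs3, a feedback inhibitor of cytokine receptors, was not called either.

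Of 22 genes whose products place IRGs at vacuoles or act in autophagy there, 21 were tested. Of these, 1 was called higher in WT and 0 lower, beside 1.67% and 0.462% of all genes. Rnf213, a large ubiquitin ligase, stood at 2715, 1734 and 1861 CPM in WT and 355, 661 and 462 CPM in Ifnar1-/- libraries (log2 fold change 2.09, SE 0.26, adjusted p = 0.00173). The median of the list was 0.08. Among those not called, the 4 most abundant by TPM were Lgals3, a galectin that binds damaged vacuoles (0.27, adjusted p = 0.383), the ATG8 protein gene Gabarap (-0.02, adjusted p = 0.956), the autophagy receptor gene Sqstm1 (0.42, adjusted p = 0.213) and Becn1 (0.08, adjusted p = 0.794).

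The guanylate-binding proteins (GBPs) are the other family of IFN-inducible GTPases that act at pathogen vacuoles. Of 12 GBP genes listed, 10 were tested and 0 were called, beside 1.67% of all genes called higher in WT and 0.462% lower. At an unadjusted p of at most 0.05, 2 passed (Gbp6 and Gbp9, both higher in WT), against 9.69% of all genes in that direction. DESeq2 and limma-voom also called 0 of the GBP genes. Their median log2 fold change was 0.05, with a range from -0.36 (Gbp2) to 0.70 (Gbp6, 239, 312 and 315 CPM in WT and 103, 226 and 204 CPM in Ifnar1-/- libraries, adjusted p = 0.198). Ifnar1-/- library 2 was the highest of its group for 9 of the 10 GBP genes, while WT library 2 was the highest for 3 of 10. Differences between the IRGs and these lists were not tested.

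**Figure D5:**
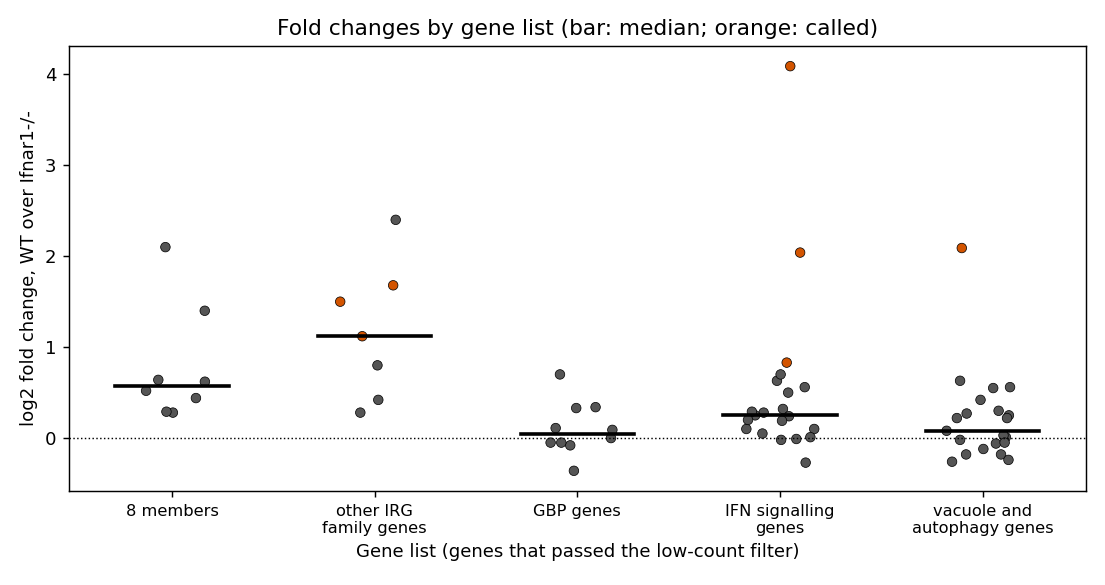
Log2 fold change of WT over Ifnar1-/- for each tested gene of 5 lists (points, spread sideways for visibility), with a bar at the list median and called genes in orange. The medians are 0.57 for the 8 IRGs, 1.12 for other IRG family genes, 0.05 for GBP genes, 0.25 for IFN signalling genes and 0.08 for vacuole and autophagy genes.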

How the data were processed

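RNA-seq libraries of sorted CNS monocytes (3 WT and 3 Ifnar1-/-, grouped by the deposited sample labels) were analysed from 6 gene-level files. The authors aligned paired-end reads of 75 bases to GRCm38 and quantified genes with RSEM. The submitters' processing notes name STAR 2.6.0c and RSEM 1.2.31, and the study's methods name the GENCODE annotation by an assembly that is not a mouse one, so its release is unclear. The labels and the study's methods name different stranded total RNA kits. The deposited values are expected counts, which the authors' tool estimated, so they need not be whole, and which were not normalized, and TPM and FPKM, which the authors deposited as scaled by length and library.

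GENCODE M21 matched 54165 of 54232 gene identifiers and left 67 unmatched. Expected counts were rounded and tested with edgeR 4.0.16 in R 4.3.3 (TMM, filterByExpr with a minimum count of 10, quasi-likelihood test without a block, Benjamini-Hochberg adjustment over 11254 genes). Single values were compared by exact two-sided permutation tests over libraries, for CPM as log2(normalized CPM + 0.5), which with 3 against 3 cannot go below 0.1. Totals of 4531782 to 7321380 counts set the precision, and floors cover counting error only. The test was checked on simulated counts, drawn independently for each gene and library. Shifts shared by the genes of a library were not simulated.

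The members and lists were chosen with earlier results of these data known. Named were all 8 members, the called genes of each list and up to 4 uncalled genes per list with the highest mean TPM (GBP genes: extremes), and the 5 most similar genes. Ifnar1, Ly6c2, Ccr2, Fcgr1, Gbp9 and genes overlapping a member were named in addition, after their values were seen. Alternatives were DESeq2 1.42.0, RLE normalization, 2 other filters on low counts, limma-voom (limma 3.58.1), no mitochondrial or ribosomal RNA genes, an adjusted p alone, Tgtp1 and Tgtp2 summed, a replicate block, offsets for GC content and length with and without the block (mgcv 1.9.3), a pseudocount of 1, and leaving out each library. DESeq2 with the block was added after seeing the data. Promoter sequences came from RefSeq (GRCm38.p6). A few listed genes are left out of the text.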

Additional observations from a re-analysis of the deposited data

How the results depend on the processing

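No member changed sign in any alternative, but the count of members called did change. It was 4 without a filter on low counts (Irgm1 0.61, adjusted p = 0.0177, Iigp1 1.40, adjusted p = 5.8e-13, Tgtp1 0.63, adjusted p = 0.00975, and Gm4951 2.10, adjusted p = 2.3e-18), where 2.87% of 21265 genes were called higher in WT. It was 1 with at least 10 counts in every library (Gm4951 2.10, adjusted p = 0.0431) and 1 with GC and length offsets (Gm4951 2.15, adjusted p = 0.0474). Leaving out 1 library at a time gave 0 to 1, with Gm4951 between 1.69 and 2.71. The cause of these changes was not tested. Of the other family genes, DESeq2 called 5 and the test without a filter 6, and without a filter 1 GBP gene was called. Nlrc5 did not pass with GC and length offsets (0.62, adjusted p = 0.0688).

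Groups share replicate numbers, and libraries of the same number deviated together weakly (correlations over genes of 0.0872, 0.0265 and 0.289). The mean was 0.134 for these libraries and -0.0666 for other pairs. These values do not settle whether libraries of the same number share a mouse. The main test therefore did not pair them, and fits with a replicate block are given as alternatives. With the replicate block, which called 1.62% of all genes higher in WT, 2 members were called (Iigp1 1.52, adjusted p = 0.00321, and Gm4951 2.19, adjusted p = 0.000874), and Nlrc5 was not (adjusted p = 0.0678). The block with GC and length offsets, at 2.02% of all genes, called 4 members (Irgm1 0.62, adjusted p = 0.0274, Iigp1 1.61, adjusted p = 0.00369, Tgtp1 0.65, adjusted p = 0.0273, Gm4951 2.24, adjusted p = 0.000782) and 2 vacuole genes, and Nlrc5 did not pass (adjusted p = 0.0531). DESeq2 with the block, added after seeing the data, called 2.09% of all genes and 3 members (Irgm1 0.61, adjusted p = 0.0392, Iigp1 1.54, adjusted p = 3.2e-09, Gm4951 2.23, adjusted p = 1.8e-09), 5 other family genes and 1 GBP gene.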

Other observations

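For all 8 IRGs each WT library was above the Ifnar1-/- library of the same number, as was the case for 20% of the 11254 genes tested. The log2 ratios of libraries 1, 2 and 3 were 2.56, 1.91 and 2.00 for Gm4951 and 1.95, 1.21 and 1.42 for Iigp1, and those of Igtp were 0.32, 0.20 and 0.34. The sources do not say that such libraries share a mouse, so these ratios are given as values only. Of the family genes under the filter on low counts, Gm4841 on chromosome 18 stood at 0.427, 1.91 and 1.78 CPM in WT libraries and at 0 in all 3 Ifnar1-/- libraries, and it was picked after its values were seen.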
